A study of Mus musculus with 2 samples.

Results

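Levels and transcript forms of 10 genes that code for regulators of splicing were measured in mouse gastrocnemius, the large muscle of the calf. The genes were Mbnl1, Mbnl2, Celf1, Rbm24, Rbm20, Rbm38, Rbfox1, Fxr1, Ptbp1 and Qk. They were chosen by name, and every read that the authors had assigned to one of them as an annotated gene was used. All 10 were detected in both libraries, out of 14704 annotated genes with at least 1 read in either library. The single group held 2 libraries, replicate 1 and replicate 2, from males of the strain B6CASTF1/J, the first-generation cross of C57BL/6 and CAST mice, aged 14 days. Each library was made from 2 µg of RNA and read by long-read RNA sequencing, in which 1 read follows 1 complementary DNA molecule through its exons. The labels name several males per biosample and 1 donor for both libraries, and do not say that the replicates came from separate animals. Every SD below therefore measures the spread between these libraries, which may be technical. Every p-value sets the difference between these libraries against counting error alone. No treated, mutant or second tissue sample was part of the series, so enrichment in muscle over other tissues was not measured.

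Splicing regulators bind short sequence elements in and around exons and set whether an exon is kept or skipped. Muscleblind proteins (Mbnl1, Mbnl2) bind YGCY elements, where Y is C or T, and drive the switch from fetal to adult exons in muscle. Celf1 acts against them at many exons, and its protein is known for falling after birth. Only RNA was measured here. Rbfox1 binds TGCATG, Qk belongs to the STAR family of RNA-binding proteins, and Ptbp1 binds pyrimidine-rich stretches and mainly represses exons. Rbm24 and its relative Rbm38 act in muscle differentiation, and Rbm20 regulates the splicing of titin. Fxr1 is a relative of the fragile X protein and has an exon used mainly in muscle. Many of these proteins regulate the splicing of their own transcripts.

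The alternative exons on which the results turn are shown first. The muscleblind paralogs share 3 coding exons that are kept or skipped, of 54, 36 and 95 bases. The 54-base exon is known for holding the proteins in the nucleus and for being skipped under the action of the muscleblind proteins themselves. Sequences are those of GENCODE M21 transcripts on GRCm38 (mm10), 5′ to 3′ in the direction of the gene, searched on the strand of the transcript. Capitals mark YGCY elements, spelled TGCT or TGCC, or either of these with C for its first letter, and the Rbfox element named above; where matches overlap, their union is in capitals.
Mbnl1 54-base exon: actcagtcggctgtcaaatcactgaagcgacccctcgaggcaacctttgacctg
Mbnl2 54-base exon: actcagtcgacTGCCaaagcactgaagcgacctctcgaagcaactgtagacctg
Mbnl1 36-base exon: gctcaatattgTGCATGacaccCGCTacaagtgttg
Mbnl2 36-base exon: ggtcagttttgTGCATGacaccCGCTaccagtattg
Mbnl1 95-base exon: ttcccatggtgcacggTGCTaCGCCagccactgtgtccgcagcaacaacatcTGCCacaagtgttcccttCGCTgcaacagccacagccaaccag
Mbnl2 95-base exon: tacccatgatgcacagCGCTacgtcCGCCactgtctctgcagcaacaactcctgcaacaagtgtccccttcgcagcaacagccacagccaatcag

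Without gaps, the paralogs were identical at 46 of 54 bases (85.2%), at 31 of 36 bases (86.1%) and at 81 of 95 bases (85.3%). The 54-base exon of Mbnl1 at chr3:60614683-60614736 held no YGCY element, and that of Mbnl2 at chr14:120395712-120395765 held 1, a number that 43.2% of 1209 annotated coding exons of that length reach. Both 36-base exons, at chr3:60621423-60621458 and chr14:120403336-120403371, held 1 TGCATG, which 1.28% of 468 coding exons of that length contain. They also held 1 YGCY element each, where 31.2% of those exons held at least 1. The 95-base exon held 4 YGCY elements in Mbnl1 at chr3:60622146-60622240 and 2 in Mbnl2 at chr14:120404638-120404732. At least 4 were found in 6.65% of 963 coding exons of that length, and at least 2 in 38.8%. These matches describe the letters of the exons, and the introns beside them were not searched.

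In Fxr1 the 81-base exon near the 3′ end is the muscle exon, held by 1 annotated transcript. The 92-base exon after it is held by 3 annotated transcripts, so it is not particular to that form. An 87-base segment upstream is spliced out of some transcripts and kept in others. They are shown because the Fxr1 results rest on them, at chr3:34064974-34065054, chr3:34068161-34068252 and chr3:34058082-34058168.
Fxr1 81-base exon: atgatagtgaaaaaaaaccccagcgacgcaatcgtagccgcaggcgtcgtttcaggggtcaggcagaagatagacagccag
Fxr1 92-base exon: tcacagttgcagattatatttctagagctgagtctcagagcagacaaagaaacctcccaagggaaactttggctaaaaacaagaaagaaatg
Fxr1 87-base intron or exon: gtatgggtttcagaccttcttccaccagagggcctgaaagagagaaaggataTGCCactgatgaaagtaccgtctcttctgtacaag

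Neither muscle exon of Fxr1 held a YGCY or TGCATG element, and the 87-base segment held 1 YGCY element, where 65.1% of 1214 coding exons of that length held at least 1. The Rbfox1 exons of 40 bases (chr16:7363865-7363904) and 43 bases (chr16:7369801-7369843) are a mutually exclusive pair, the shorter used mainly in brain and the longer in muscle, and are shown for the choice between them. The 24-base stretch of Qk (chr17:10216436-10216459, minus strand) lies at the start of a coding exon and was left out of 73 of 112 informative reads.
Rbfox1 40-base exon: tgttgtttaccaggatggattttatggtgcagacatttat
Rbfox1 43-base exon: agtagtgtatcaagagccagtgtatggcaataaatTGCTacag
Qk 24-base stretch: cagccctTGCCttttctcttgcag

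The 40-base exon of Rbfox1 held no YGCY element and the 43-base exon held 1, where 37.5% of 307 coding exons of that length held at least 1. None of these 3 sequences held TGCATG.

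Replicate 1 held 1141661 reads and replicate 2 held 642362 reads, or 1094607 and 626289 after spike-in RNAs were set aside. A count of 0 allowed a level of up to 2.74 CPM (counts per 1000000 reads) in replicate 1 and 4.79 CPM in replicate 2. Weighted by reads, the median length of the complete models was 1925 bases in replicate 1 and 1473 bases in replicate 2. All 6 markers of fast skeletal muscle were present, with a summed level of 193044 CPM in replicate 1 and 192999 CPM in replicate 2. The near-equal sums hide differences between the libraries, since 3 of the 6 were higher in replicate 1 and 3 in replicate 2. Myh4 had 16876 CPM in replicate 1 and 11464 CPM in replicate 2, and Mylpf had 21892 and 31620 CPM. All 4 neuron markers, Rbfox3, Snap25, Syt1 and Tubb3, had 0 reads in both libraries. Of 4 heart markers, Nppa and Myl7 had 0 reads and the list summed to 2.74 CPM in replicate 1 and 3.19 CPM in replicate 2. All 3 fibroblast markers were detected and were higher in replicate 1, summing to 6894 CPM there and to 2711 CPM in replicate 2. The 3 Schwann cell markers, also detected, summed to 134 CPM in replicate 1 and 292 CPM in replicate 2. Endothelial (3 of 3), smooth muscle (2 of 2) and myoblast or satellite cell markers (3 of 3) were detected too. They summed to 259, 270 and 175 CPM in replicate 1 and 136, 200 and 156 CPM in replicate 2. The last sum came mostly from Myog, with 148 CPM in replicate 1 and 142 CPM in replicate 2. Pax7, the satellite cell marker, had 0 reads in replicate 1 and 1 in replicate 2.

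The 10 regulators together gave 1116 reads in replicate 1 and 517 reads in replicate 2, a summed level of 1020 CPM and 825 CPM, or 923 ± 137 CPM (SD, n = 2). Each of the 10 lay above the median level of all detected genes, 6.73 CPM. Rbm38, which binds messenger RNAs of cell-cycle and differentiation genes, was read 322 times in replicate 1 (294 CPM) and 115 times in replicate 2 (184 CPM). Rbm24, which promotes the inclusion of muscle exons, was read 235 times in replicate 1 (215 CPM) and 92 times in replicate 2 (147 CPM). Both were higher in replicate 1. Fxr1 had 133 reads in replicate 1 (122 CPM) and 130 reads in replicate 2 (208 CPM), so its level was higher in replicate 2. Mbnl2 had 166 reads in replicate 1 (152 CPM) and 53 reads in replicate 2 (84.6 CPM), and Mbnl1 had 72 reads in replicate 1 (65.8 CPM) and 23 reads in replicate 2 (36.7 CPM). Both muscleblind genes were thus lower in replicate 2.

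Qk had 87 reads in replicate 1 (79.5 CPM) and 65 reads in replicate 2 (104 CPM). Rbfox1 was read 34 times in replicate 1 (31.1 CPM) and 18 times in replicate 2 (28.7 CPM), the ratio between the libraries closest to 1 among the 10. Rbm20, whose best known target is titin, was read 34 times in replicate 1 (31.1 CPM) and 12 times in replicate 2 (19.2 CPM). Celf1 was read 17 times in replicate 1 (15.5 CPM) and 5 times in replicate 2 (7.98 CPM). Ptbp1, a repressor that many differentiating cells turn down, was read 16 times in replicate 1 (14.6 CPM) and 4 times in replicate 2 (6.39 CPM). In bulk tissue, fewer cells of a type and less RNA per cell cannot be told apart.

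**Figure D1:**
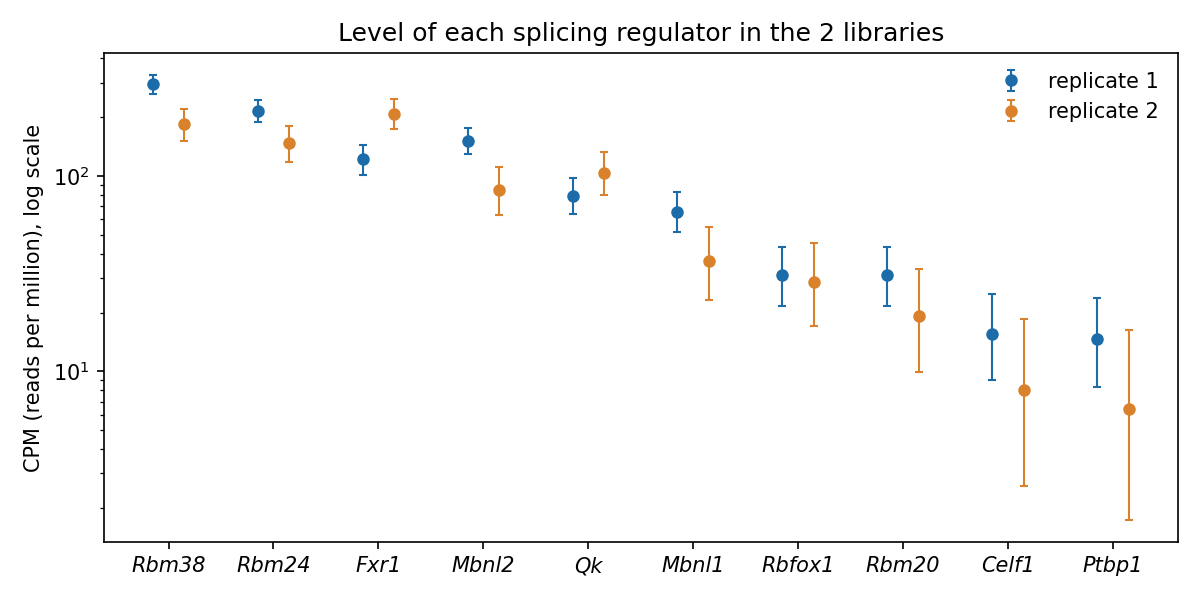
Level of each regulator in CPM (vertical axis, log scale), replicate 1 in blue at left and replicate 2 in orange at right, with Clopper-Pearson intervals (95%) that cover counting error only. Fxr1 and Qk lie higher in replicate 2 and the other genes higher in replicate 1, with Rbfox1 at 31.1 and 28.7 CPM.

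Since a long read stands for 1 molecule, the CPM above are the main measure of level and were not divided by length. As a second scale, the genes were also compared by CPM per kilobase of their mean complete model, which raises genes with short transcripts. For Celf1, Rbm20 and Ptbp1 that mean length rests on few complete reads. Rbm38 was first at 140 ± 45.7 CPM per kilobase (SD, n = 2), and its libraries lay above both libraries of Fxr1, the next gene. Fxr1 followed at 70.6 ± 26.1 and Rbm24 at 59.9 ± 15.9 on this scale, and these neighbours overlapped. Mbnl2 stood apart from its neighbours at 32.8 ± 13.2. Rbfox1 (16.7 ± 0.914), Qk (14.9 ± 2.80) and Mbnl1 (11.4 ± 4.55) overlapped each with the next. The lowest group, below Mbnl1, was Rbm20 at 4.66 ± 1.56, Ptbp1 at 3.46 ± 1.92 and Celf1 at 2.64 ± 1.20, again with overlap between neighbours. In CPM the order differed, since Qk at 91.6 ± 17.2 CPM and Mbnl1 at 51.3 ± 20.5 CPM stood above Rbfox1 at 29.9 ± 1.64 CPM. The separations of Rbm38 and Mbnl2 were also absent in CPM. There the libraries of Rbm38 overlapped those of Rbm24, and the libraries of Mbnl2 overlapped those of Fxr1 and Qk. Complete models averaged 6141 bases in Qk and 4514 bases in Mbnl1, against 1795 bases in Rbfox1.

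Levels in the libraries were compared by a two-sided Fisher's exact test, in which the reads of 1 gene were set against all other reads of each library. Adjustment by Benjamini and Hochberg ran over the 7955 genes that had 10 reads or more in both libraries together. The test compares 2 libraries of 1 group, not conditions. Of all genes tested, 13.5% differed, 6.89% with a higher level in replicate 1 and 6.56% with a higher level in replicate 2. Of the 10 regulators 4 differed, 3 higher in replicate 1 and 1 higher in replicate 2. The log2 ratio of replicate 1 over replicate 2 was 0.68 for Rbm38 (adjusted p = 0.000172), 0.54 for Rbm24 (adjusted p = 0.0180) and 0.83 for Mbnl2 (adjusted p = 0.00204, two-sided Fisher's exact test). The call for Rbm24 was lost with TMM library sizes (adjusted p = 0.170), and that for Mbnl2 was lost when replicate 1 was thinned to the depth of replicate 2 (adjusted p = 0.101). Mbnl1 had a ratio of 0.82 without passing the threshold (adjusted p = 0.0859, Fisher's exact test); with a minimum of 50 reads it passed (adjusted p = 0.0431). Fxr1 had a log2 ratio of -0.77 (adjusted p = 0.000293, Fisher's exact test). The part in these differences of model length and of fibroblast and Schwann cell markers, which also differed between the libraries, was not tested.

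The Fxr1 difference moved with reads of a single exon. Such reads, all within an annotated last exon, numbered 14 in replicate 1 (12.8 CPM) and 62 in replicate 2 (99.0 CPM). Among them, 5 in replicate 1 and 19 in replicate 2 began past the most read end of the complete models. Reads of complete Fxr1 models gave 95.0 CPM in replicate 1 and 99.0 CPM in replicate 2, a log2 ratio of -0.06 (adjusted p = 0.957, Fisher's exact test, complete models alone). For the other 6 regulators the adjusted p lay from 0.0859 (Mbnl1) to 0.997 (Rbfox1), which does not show that their levels were equal.

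The completeness of the reads varied widely among the regulators. A complete model is one of the classes Known (annotated), NIC or NNC (unannotated chains of introns), a partial model matches part of an annotated transcript, and the Genomic class overlaps a gene without following its splicing. Of the regulators' reads, 81.5% in replicate 1 and 73.3% in replicate 2 were complete, against 87.5% and 83.8% of the reads of all genes. The Genomic class took 5.38% of the regulators' reads in replicate 1 and 12.4% in replicate 2, against 2.34% and 4.69% over all genes. Over both libraries, Rbm38 had the highest complete share, 95.7% of 437 reads, and Mbnl2 had 92.7% of 219. Rbm20 was at the other end, with 23.9% of 46 reads complete and 73.9% partial. Celf1 had 27.3% of 22 reads complete and 50% in the Genomic class, and all its reads of that class lay within a last exon. In Mbnl1, 49.5% of 95 reads were complete, in Rbfox1 53.8% of 52 and in Fxr1 63.1% of 263.

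**Figure D2:**
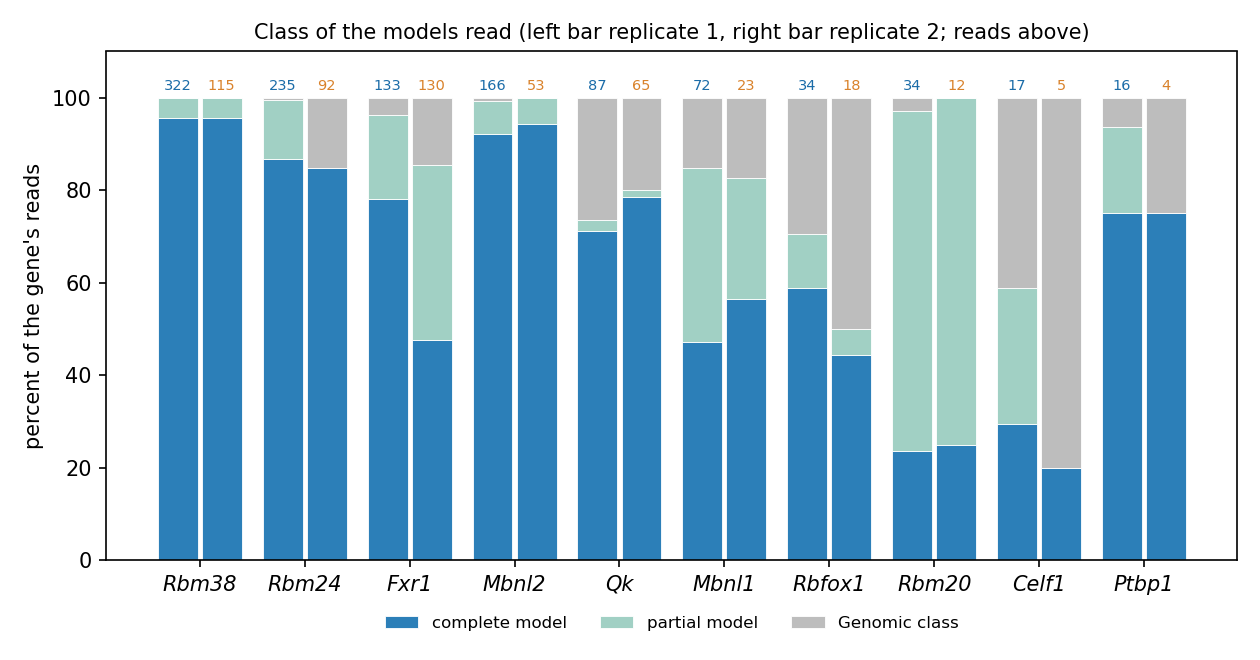
Percent of each regulator's reads (vertical axis) in complete models, partial models and the Genomic class, with replicate 1 as the left bar and replicate 2 as the right bar and the read count above each bar. Rbm38 and Mbnl2 are mostly complete in both libraries, and Rbm20 is mostly partial in both.

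Annotation covered the regulators unevenly. Of 1387 spliced reads of the 10 genes, 142 (10.2%) used at least 1 splice site that GENCODE M21 does not list. Most of these were in Qk, with 73 of 116 spliced reads (62.9%), and Rbfox1, with 24 of 32 (75.0%). In Rbm38 and Rbm24 the share was 1.44% and 1.76%, and Celf1 and Ptbp1 had none among 11 and 18 spliced reads.

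The exon results begin with Mbnl1 and Mbnl2. In both genes the 54-base exon was skipped in most reads, while the 95-base exon was kept in most reads of Mbnl1 and skipped in most reads of Mbnl2. A read was informative for an exon when its model either held the exon between the same splice sites or had an intron across it. The 54-base exon was held by 4 of 51 informative Mbnl1 reads in replicate 1 and by 1 of 17 in replicate 2, a mean share of 6.86 ± 1.39% (SD, n = 2). In Mbnl2 it was held by 14 of 155 reads in replicate 1 and by 5 of 51 in replicate 2, 9.42 ± 0.546%. The share was thus below 10% in every library of both paralogs.

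The 36-base exon was held by 4 of 60 Mbnl1 reads in replicate 1 and by 3 of 18 in replicate 2. In Mbnl2 it was held by 1 of 157 reads in replicate 1 and by 0 of 51 in replicate 2, a pooled share of 0.481% with an upper Clopper-Pearson bound of 2.65%. The pooled Mbnl1 share was 8.97%, with bounds of 3.68% and 17.6%. The pooled intervals of the paralogs did not overlap, while those within each library did, and without models read once both paralogs were at 0%. The 95-base exon, whose length is no multiple of 3 and so changes the reading frame, was held by 53 of 60 Mbnl1 reads in replicate 1 and by 15 of 18 in replicate 2 (85.8 ± 3.54%). In Mbnl2 it was held by 32 of 156 reads in replicate 1 and by 10 of 51 in replicate 2 (20.1 ± 0.640%). Every library of Mbnl1 lay above every library of Mbnl2 for this exon.

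Because each read spans the exons together, combinations could be counted. Of 205 Mbnl2 reads informative for both, 147 held neither the 54-base nor the 95-base exon, 39 held the 95-base exon alone, 17 held the 54-base exon alone and 2 held both. The 7-exon chain without any of the 3 exons made up 67.0 ± 4.20% of complete Mbnl2 reads, and it is not annotated as a full transcript. Of 68 Mbnl1 reads, 56 held the 95-base exon without the 54-base exon, 4 held both, 1 held the 54-base exon alone and 7 held neither. No Mbnl1 read held both the 54-base and the 36-base exon, where 5 of 68 reads held each of them alone. In Mbnl2 the only read with the 36-base exon also held the 95-base exon. Whether these choices are linked cannot be told from so few reads.

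A stretch of 105 bases at the start of a later Mbnl1 exon (chr3:60615620-60615724) was held by 42 of 51 reads in replicate 1 and by 16 of 17 in replicate 2. All 5 reads with the 54-base exon held this stretch. Upstream, a long exon of 1049 bases (chr3:60528756-60529804), the second exon of Mbnl1-201 and partly coding there, was held by 7 of 32 reads in replicate 1 and by 5 of 13 in replicate 2. Of 45 reads that could show both, 12 held the long exon and 4 held the 54-base exon, and none held both. These counts are too small to tell whether the choices are linked. Complete Mbnl1 reads began mostly in 1 first exon of 245 bases (25 of 34 in replicate 1 and 8 of 13 in replicate 2) and ended almost always in the same last exon (33 of 34 and 13 of 13). The 34 and 13 complete reads fell into 24 different intron chains, with 11 reads in replicate 1 and 3 in replicate 2 on the leading one, an unannotated chain of 8 exons.

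**Figure D3:**
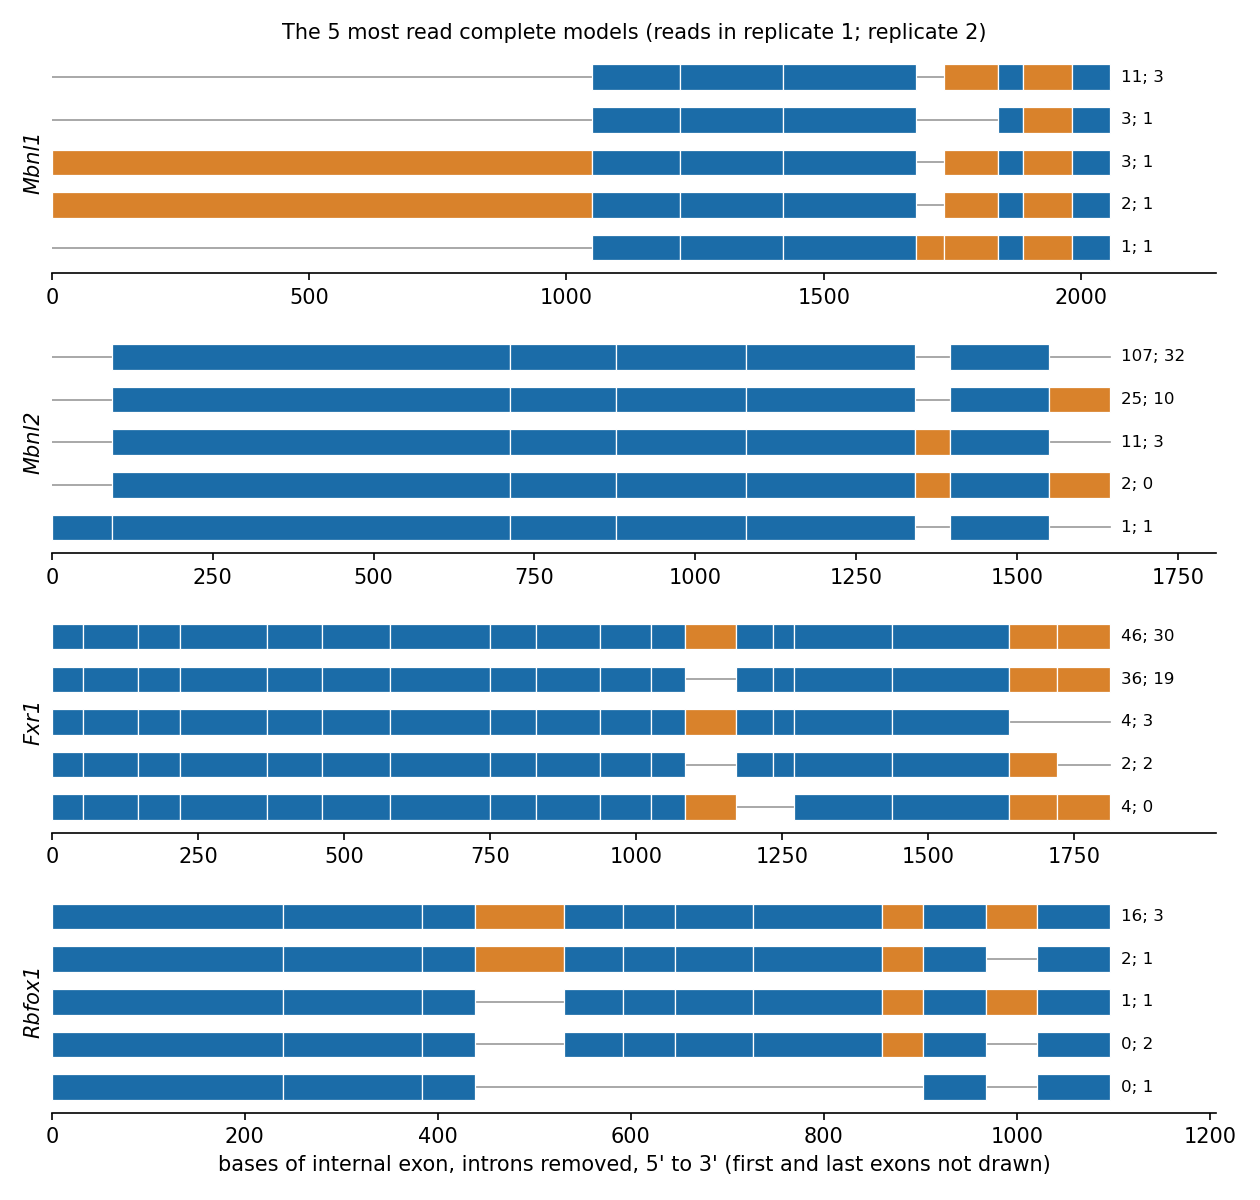
The 5 most read complete intron chains of Mbnl1, Mbnl2, Fxr1 and Rbfox1, drawn from 5′ to 3′ with internal exons to scale in bases and introns removed; orange marks the alternative segments described in the text, blue the other exons, a thin line a segment left out, and the numbers are reads in replicate 1 and replicate 2. Chains drawn alike differ in a first or last exon, which is not drawn; the leading Mbnl2 chain, with 107 and 32 reads, lacks both orange exons.

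Most Fxr1 reads held the 81-base muscle exon, and most held the 92-base exon. The 81-base exon was held by 107 of 114 informative reads in replicate 1 and by 61 of 67 in replicate 2 (92.5 ± 1.99%). The 92-base exon was held by 103 of 116 reads in replicate 1 and by 60 of 68 in replicate 2 (88.5 ± 0.394%). On the same molecule, 158 of 181 reads held both exons, 11 held neither, 10 held the 81-base exon alone and 2 held the 92-base exon alone. The libraries were alike in this, with 100 reads that held both and 6 that held neither in replicate 1, and 58 that held both and 5 that held neither in replicate 2.

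The 87-base segment upstream divided Fxr1 reads more evenly. It was kept in 57 of 110 reads in replicate 1 and in 37 of 65 in replicate 2 (54.4 ± 3.61%), and its length is a multiple of 3. Among 173 reads that could show both, 85 had the 81-base exon with the segment kept and 75 had it with the segment removed. The 2 leading chains differed by this segment, Fxr1-201, which keeps it and encodes 677 residues, and an unannotated chain of 18 exons that splices it out. All complete Fxr1 reads, 104 in replicate 1 and 62 in replicate 2, shared the same first exon donor and the same last exon acceptor.

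Of the cassette exons of all genes, 718 in 401 genes had enough reads in both libraries for a test, and 0.696% of them differed in inclusion between the libraries. Those tested among the regulators were 4, the 54-base and 95-base exons of Mbnl2 and the 81-base and 92-base exons of Fxr1. None of the 4 passed (adjusted p = 1 for each, Fisher's exact test with Benjamini-Hochberg adjustment). The shares of complete models as a whole were compared in 961 genes, of which 3.85% differed. Mbnl2, Rbm24, Rbm38, Fxr1 and Qk had enough reads for this, and none passed, with adjusted p from 0.241 for Qk to 1 for Mbnl2 and Fxr1.

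**Figure D4:**
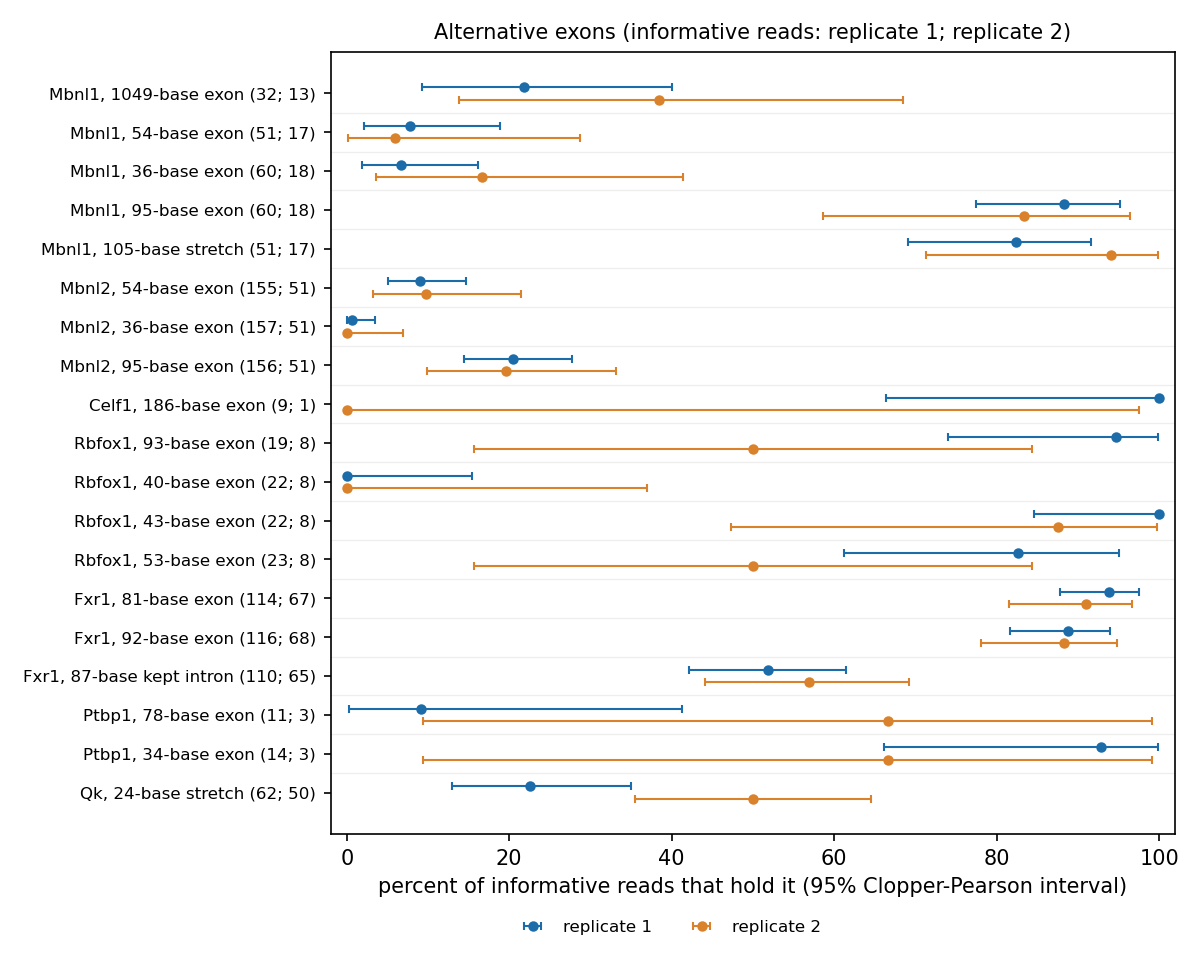
Percent of informative reads that hold each alternative segment (horizontal axis) with Clopper-Pearson intervals (95%), replicate 1 in blue above and replicate 2 in orange below, and the number of informative reads in brackets. The 95-base exon lies above 80% in Mbnl1 and near 20% in Mbnl2, and the muscle exons of Fxr1 lie near 90% in both libraries.

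Rbfox1 was read in its muscle form as far as 22 and 8 informative reads could show. The 43-base exon was held by 22 of 22 reads in replicate 1 and by 7 of 8 in replicate 2. The 40-base exon was held by none of these 30 reads, which allows a share of up to 10% by the limit of 3 counts and has an upper Clopper-Pearson bound of 11.6%. A 53-base exon at chr16:7391988-7392040 that GENCODE M21 does not list was held by 19 of 23 reads in replicate 1 and by 4 of 8 in replicate 2. It made the leading Rbfox1 chain, of 14 exons, an unannotated one, with 16 of 20 complete reads in replicate 1 and 3 of 8 in replicate 2. All 22 reads with the 53-base exon that were informative for the 43-base exon held that exon too. Of such reads without the 53-base exon, 7 held the 43-base exon and 1 did not.

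The 93-base exon of Rbfox1 (chr16:7292185-7292277), which lies in the RNA-binding domain, was held by 18 of 19 reads in replicate 1 and by 4 of 8 in replicate 2. Inclusion of the 93-base and the 53-base exon was lower in replicate 2, where 8 reads give Clopper-Pearson bounds of 15.7% and 84.3% for each. The bounds in replicate 1 were 74.0% and 99.9% for the 93-base exon and 61.2% and 95.0% for the 53-base exon, so the intervals overlapped. All complete Rbfox1 reads, 20 in replicate 1 and 8 in replicate 2, began in the same first exon of 240 bases. Single-exon reads were 10 in each library. In replicate 1, 9 of them lay within the last exon and 1 outside annotated exons. In replicate 2, 8 came from 1 model that began in the last exon and ran past its annotated end. Of the rest there, 1 lay outside annotated exons and 1 within another exon.

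Qk reads divided over its 3 known protein ends and over 2 acceptors of a coding exon. The last exon of Qk-204, whose annotated protein has 341 residues (QKI-5), ended 39 of 62 complete reads in replicate 1 and 40 of 51 in replicate 2. The last exon of Qk-206, with 319 residues (QKI-6), ended 16 of 62 in replicate 1 and 9 of 51 in replicate 2. That of Qk-201, with 325 residues (QKI-7), ended 7 of 62 in replicate 1 and 2 of 51 in replicate 2. The order of the 3 ends was thus the same in both libraries.

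The 24-base stretch of Qk was held by 14 of 62 informative reads in replicate 1 and by 25 of 50 in replicate 2. Clopper-Pearson bounds were 12.9% and 35.0% in replicate 1 and 35.5% and 64.5% in replicate 2, so the shares did not overlap within counting error; the stretch was chosen after its values were seen, and no test is given. The shorter form, in 73 of 112 reads, starts at an acceptor that GENCODE M21 does not list and keeps the reading frame, since 24 is a multiple of 3. Among reads with the end of the 341-residue form, 27 held the stretch and 50 lacked it. Among those with the end of the 319-residue form, 10 held it and 15 lacked it, and for the 325-residue form 2 held it and 7 lacked it. The shorter form was thus the more frequent one with every end over both libraries, although in replicate 2 the 319-residue end had 7 reads with the stretch and 2 without it. The leading Qk chain, with the short form and the 341-residue end, took 27 of 62 complete reads in replicate 1 and 22 of 51 in replicate 2.

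Ptbp1 and Celf1 gave few reads. Skipping of the 34-base exon of Ptbp1 (chr10:79862014-79862047) is known to send its transcript to decay, and 13 of 14 reads in replicate 1 and 2 of 3 in replicate 2 held it. The 78-base exon (chr10:79860117-79860194), which separates the main Ptbp1 proteins, was held by 1 of 11 reads in replicate 1 and by 2 of 3 in replicate 2. Ptbp1-206, which lacks it and encodes 529 residues, had 9 of 12 complete reads in replicate 1 and 1 of 3 in replicate 2, and Ptbp1-216, which holds it and encodes 555 residues, had 1 in each library. The 186-base coding exon of Celf1 (chr2:91010393-91010578) was held by 9 of 9 reads in replicate 1 and by 0 of 1 in replicate 2. These exons had too few reads for the test of cassette exons, and for each of them the Clopper-Pearson intervals of the libraries overlapped.

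Rbm24 and Rbm38 were each read mostly as 1 annotated form. Rbm24-201, of 4 exons, took 183 of 204 complete reads in replicate 1 and 75 of 78 in replicate 2 (92.9 ± 4.56%). Rbm38-201, also of 4 exons, took 273 of 308 complete reads in replicate 1 and 99 of 110 in replicate 2 (89.3 ± 0.964%). Its other reads came mainly from other first exons, the most read of them with 17 reads in replicate 1 and 2 in replicate 2. Rbm20, read mostly in partial models, had 8 complete reads in replicate 1 and 3 in replicate 2. Its leading annotated form took 3 of them in each library, and an unannotated chain of 14 exons took 4 in replicate 1 and 0 in replicate 2. By first exon, 3 complete reads in each library began in the 287-base exon, and the other 5, all in replicate 1, began in an annotated exon of 139 bases.

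Of 36 other tissue-regulated splicing factors and paralogs, 24 were detected and 20 were detected in both libraries, with a summed level of 517 CPM in replicate 1 and 441 CPM in replicate 2. Of those, 7 reached 20 CPM in both libraries. Fxr2, the paralog of Fxr1, had 92.3 CPM in replicate 1 and 112 CPM in replicate 2. Elavl1, which stabilises messenger RNAs, had 76.7 CPM in replicate 1 and 54.3 CPM in replicate 2. The paraspeckle genes were Nono, with 53.9 CPM in replicate 1 and 25.5 CPM in replicate 2, and Sfpq, with 27.4 CPM in replicate 1 and 25.5 CPM in replicate 2. Matr3, a protein of the nuclear matrix, had 42.9 CPM in replicate 1 and 46.3 CPM in replicate 2. Celf2, a paralog of Celf1, had 35.6 CPM in replicate 1 and 30.3 CPM in replicate 2, and Khdrbs1, a STAR protein like Qk, had 35.6 CPM in replicate 1 and 27.1 CPM in replicate 2. Nono alone differed between the libraries among 17 tested (log2 ratio 1.04, adjusted p = 0.0444, Fisher's exact test). Over all genes tested, the share that differed was 13.5%. No read came from 12 of the 36, among them Mbnl3, Celf4, Esrp1 and Elavl4.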

How the data were processed

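For each library the authors deposited a table of whole-number read counts, 1 row per transcript model, and an annotation of these models on mm10 and GENCODE M21, per the deposited file descriptions. Attribute names are those of TALON, per the file headers. For the aligner, read correction and filters, nothing is given in the sources used here. Reads of both parental alleles of the B6CASTF1/J cross were placed on mm10.

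Counts were summed per annotated gene without spike-in contigs and divided by the library total (CPM). Annotated forms were judged by comparison with GENCODE M21. Library differences were tested by Fisher's exact test over genes with at least 10 reads, by Fisher's or chi-square tests of model shares (at least 50 complete reads per library; models under 5 expected reads merged), and by Fisher's exact test of cassette exons (at least 20 informative reads per library, pooled inclusion from 5% to 95%), each with Benjamini-Hochberg adjustment and a threshold of 0.05. A log2 ratio used a pseudocount of 0.5 reads. Intervals of shares are exact (Clopper-Pearson, 95%); they and the limit of 3 reads used for a count of 0 cover counting error only. The tests were checked on simulated counts.

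Members and lists were chosen with earlier results of these data known. Named are cassette exons of a member with at least 10 informative reads and pooled inclusion from 5% to 95%, and the fixed exons of Mbnl1, Mbnl2, Fxr1, Ptbp1 and Rbfox1. Named models hold at least 10% of complete reads, and other splicing factors reach 20 CPM in both libraries or are up to 4 with 0 reads. The rule for alternative splice sites and kept introns (at least 10 informative reads and 10% of each form), which gave the segments of 105, 87 and 24 bases, and the comparison on complete models alone were added after the data were seen. Tools were edgeR 4.0.16 under R 4.3.3 for TMM, and scipy 1.17.1, numpy 2.4.6, matplotlib 3.10.9 and pandas 2.3.3 under Python 3.11.15. Alternatives covered read minimums, model classes, TMM, thinning, matching of exon ends and leaving out each replicate.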

Additional observations from a re-analysis of the deposited data

How the results depend on the processing

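No called library difference changed direction under the alternatives run; that of Rbfox1, which was not called, had a log2 ratio of -0.070 with TMM library sizes. Leaving out a replicate put the 186-base exon of Celf1 at 100% or 0% and the 78-base exon of Ptbp1 at 9.09% or 66.7%. The summed level of the 10 regulators, 923 CPM, was 693 CPM with annotated models alone, scaled to the reads of such models, 718 CPM with complete models alone, scaled to all reads, and from 825 to 1020 CPM when a replicate was left out. The number of genes whose model shares differ, 37, was 78 with all models that have an intron, joined by intron chain, and 20 with complete models joined by intron chain alone; no regulator passed in any of these. No paired analysis was possible because the series has 1 group, so there are no groups whose replicates could be matched. Annotated models alone ended the library call for Rbm24 (adjusted p = 0.0937), Mbnl2 (adjusted p = 0.538) and Fxr1 (adjusted p = 0.672, Fisher's exact test) and gave one for Qk (log2 ratio -1.70, adjusted p = 0.00317), whose leading form is not annotated. Mean levels with annotated models alone were 1.30 CPM for Mbnl1, 29.7 CPM for Mbnl2 and 2.45 CPM for Rbfox1. Without models read once, the 54-base and 36-base exons of Mbnl1 were at 0%, since each of their models had a single read. Depth limits Celf1, Ptbp1, Rbm20 and Rbfox1, with 11 to 33 spliced reads each, to shares with wide intervals.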
